A study of Chromochloris zofingiensis with 6 samples.

Results

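The genes described here are the 5 genes that the study's pathway tables annotate as superoxide dismutase (SOD) or catalase (CAT) in the green microalga *Chromochloris zofingiensis*: 3 SOD genes and 2 CAT genes, out of 15037 genes listed in at least 1 library. Cz09g10230.t1 is annotated as an Fe-type SOD, Cz03g14130.t1 and Cz05g19280.t1 as Fe/Mn-type SODs, and UNPLg00177.t1 and Cz18g04130.t1 as catalases, and the transcript suffix is left out from here on. They were taken by annotation and not by their response, although earlier results of these data were known. All 5 were among the 13886 genes tested. The identifiers of 4 of them carry a chromosome number (9, 3, 5 and 18), whereas UNPLg00177 lies on unplaced sequence. Positions and sequences were not used here.

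The libraries came from strain ATCC30412, with 3 replicates collected at 0 h and 3 at 6 h. Time was counted from when washed, exponentially growing cells were put into Kuhl medium with 200 mM NaCl. All cultures were lit continuously and supplied with air enriched in CO2. Poly-A RNA was sequenced, 1 library per culture and time, to ask how transcript levels change upon salt treatment. A salt-free culture of the same age was not analysed here, so salt, time, handling and fresh medium cannot be told apart. In bulk RNA, fewer cells that express a gene and less RNA per cell cannot be told apart either.

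SOD converts the superoxide radical, a by-product of photosynthetic and respiratory electron transport, into hydrogen peroxide and oxygen. In plants and green algae Fe-SOD is typically a plastid enzyme and Mn-SOD a mitochondrial one, and the metal type written in an annotation is a prediction from sequence. Catalase, a heme enzyme usually found in peroxisomes, breaks hydrogen peroxide down to water and oxygen, so that the 2 families act on consecutive steps.

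Transcript levels are given in FPKM, a fragment count corrected for gene length and library size, which allows levels of different genes to be set side by side within a library. For the comparison of 6 h with 0 h, FPKM were brought to a common scale by median-of-ratios factors and tested on the log2 scale with limma. A gene was called when its adjusted p was under 0.05 and its log2 fold change at least 1 in size. By this rule 2772 genes (20.0%) were higher and 3692 (26.6%) lower at 6 h, which is 46.6% of the genes tested. The 3 libraries at 6 h spread more (residual SD 0.289 to 0.630 on the log2 scale) than those at 0 h (0.165 to 0.195). Judged from the steps between low FPKM, a single fragment was worth 1.01 and 1.06 times as much in 0 h replicates 2 and 3 as in 0 h replicate 1, and 1.03 to 1.41 times as much in the libraries at 6 h.

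Both catalase genes were called, in opposite directions, which is 2 of the 5 genes beside the 46.6% of all genes. UNPLg00177 rose from a mean of 14.6 ± 0.822 to 167 ± 18.3 FPKM (SD, n = 3 cultures), an 11.5-fold increase in deposited FPKM (14.1-fold after scaling). Cz18g04130 fell from 517 ± 20.8 to 159 ± 12.2 FPKM (SD, n = 3), or 0.308 times its deposited level at 0 h (2.62-fold lower after scaling). The result was a pair of catalase transcripts that differed widely at 0 h and stood at about the same level at 6 h.

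In detail, UNPLg00177 was at 15.36, 13.72 and 14.63 FPKM in the 3 libraries at 0 h and at 166.45, 149.3 and 185.87 FPKM at 6 h. Every library at 6 h lay far above every library at 0 h, and 6 h replicate 3 held the highest value. Its log2 fold change after scaling was 3.81 (SE 0.122, 95% confidence interval 3.52 to 4.11, adjusted p = 8.22e-06 by limma). A log2 fold change of this size or larger was reached by 146 genes, 1.05% of those tested, this gene included.

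Cz18g04130 was at 540.89, 506.45 and 503.52 FPKM at 0 h and at 151.24, 153.46 and 173.44 FPKM at 6 h. The groups did not overlap, and the highest library at 6 h again was replicate 3. The log2 fold change was −1.39 (SE 0.107, 95% confidence interval −1.65 to −1.13, adjusted p = 8.94e-05 by limma). Of all genes tested, 73.3% had deposited FPKM that did not overlap between the times, 27.2% with 6 h above 0 h and 46.1% with 6 h below, so the lack of overlap by itself does not set either catalase apart.

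**Figure D1:**
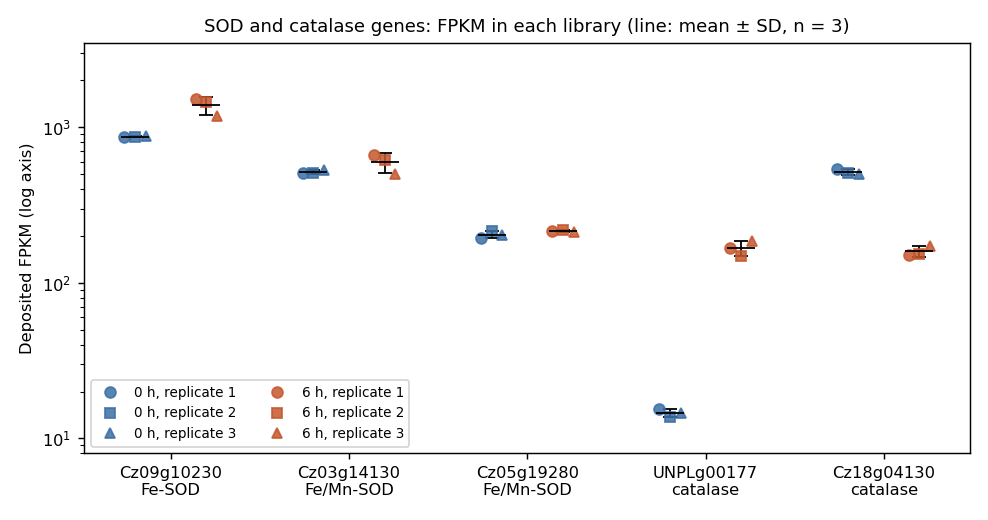
Deposited FPKM (log axis) of the 3 SOD and 2 CAT genes in each of the 3 libraries at 0 h (blue) and at 6 h (orange), with the mean ± SD as black lines. UNPLg00177 moved from 13.72 to 15.36 FPKM at 0 h up to 149.3 to 185.87 FPKM at 6 h, where it met Cz18g04130 coming down from 503.52 to 540.89 FPKM. The values of Cz03g14130 and Cz05g19280 overlap between the times.

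The ratio of the catalase transcripts within a library needs no scaling between libraries. UNPLg00177 stood at 0.0284, 0.0271 and 0.0291 times the FPKM of Cz18g04130 at 0 h, and at 1.10, 0.973 and 1.07 times at 6 h. At 6 h the library of replicate 2 alone had Cz18g04130 as the higher of the pair. The log2 ratio differed by 5.22 between the times (exact permutation test, two-sided, p = 0.1, n = 3 per time), which is the smallest p that 3 against 3 libraries can give.

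Expressed as shares of total catalase FPKM, UNPLg00177 made up 2.74% ± 0.0946 at 0 h and 51.1% ± 1.62 at 6 h (SD, n = 3). Cz18g04130 held the remaining 97.3% ± 0.0946 at 0 h and 48.9% ± 1.62 at 6 h. The share of UNPLg00177 at 6 h ranged from 49.3% to 52.4% across libraries, a far smaller spread than the difference between the times.

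The SOD genes were the more abundant family at both times, and 0 of the 3 were called, beside 46.6% of all genes. With only 3 genes this count does not set the family apart. With median-of-ratios scaling all 3 had an adjusted p under 0.05 by limma with a log2 fold change above 0 but short of 1. With the same scaling and 1 library left out, the adjusted p of Cz03g14130 by limma ranged from 0.00135 to 0.0934. That of Cz05g19280 ranged from 0.00383 to 0.0510 (limma). For Cz03g14130 and Cz05g19280 the adjusted p by limma missed the threshold under each of the 3 other scalings (0.273 to 0.582 and 0.437 to 0.732), and Cz05g19280 turned below 0 with TPM scaling. By adjusted p alone 67.4% of all genes passed, 33.6% upward and 33.8% downward. At an unadjusted p under 0.05, 3 of the 3 SOD genes and 71.0% of all genes passed.

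The Fe-SOD gene Cz09g10230 had the highest FPKM of the 5 genes in every library. It was at 867.22, 863.6 and 877.36 FPKM at 0 h and at 1528.39, 1449.14 and 1184.77 FPKM at 6 h. The libraries at 0 h lay very close together, those at 6 h were all higher, and 6 h replicate 3 was the lowest of them. The means were 869 ± 7.13 and 1387 ± 179.9 FPKM (SD, n = 3), a ratio of 1.60.

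With scaling, the log2 fold change of Cz09g10230 was 0.97 (SE 0.156, 95% confidence interval 0.60 to 1.35, adjusted p = 0.00198 by limma), just under the limit of 1. The interval includes 1, so with median-of-ratios scaling this gene lies on the border of the call. The log2 fold change was smaller with TPM scaling (0.53, interval 0.29 to 0.78) and upper-quartile scaling (0.62, interval 0.34 to 0.90), where the interval excludes 1. Without scaling it was 0.67 (interval 0.30 to 1.03). With median-of-ratios scaling but without 6 h replicate 3, it was 1.10 and the gene was called higher (adjusted p = 0.000205 by limma, range over all alternatives 3.27e-08 to 0.0182).

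The Fe/Mn-SOD gene Cz03g14130 was at 507.11, 508.79 and 534.03 FPKM at 0 h and at 666.15, 615.72 and 499.58 FPKM at 6 h. Replicates 1 and 2 at 6 h were above all libraries at 0 h, whereas 6 h replicate 3 was below all of them. The means were 517 ± 15.1 and 594 ± 85.4 FPKM (SD, n = 3). The log2 fold change was 0.50 (SE 0.149, 95% confidence interval 0.14 to 0.86, adjusted p = 0.0247 by limma), which did not reach the limit.

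The other Fe/Mn-SOD gene, Cz05g19280, was the least abundant SOD. It was at 194.78, 215.32 and 201.66 FPKM at 0 h and at 215.63, 219.75 and 213.66 FPKM at 6 h, so that 0 h replicate 2 overlapped the range at 6 h. The means were 204 ± 10.5 and 216 ± 3.11 FPKM (SD, n = 3). The log2 fold change was 0.39 (SE 0.0941, 95% confidence interval 0.17 to 0.62, adjusted p = 0.0105 by limma).

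Within the SOD family the Fe-SOD gene held a larger share at 6 h. Cz09g10230 accounted for 54.7% ± 0.506 (SD, n = 3) of total SOD FPKM in the libraries at 0 h and for 63.1% ± 0.578 at 6 h. Cz03g14130 went from 32.5% ± 0.551 to 27.0% ± 0.659, and Cz05g19280 from 12.8% ± 0.639 to 9.94% ± 1.19. None of these shares overlapped between the times. The shares within a library are tied to one another, and 73.3% of all genes had deposited FPKM without overlap. No such background was computed for shares.

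**Figure D2:**
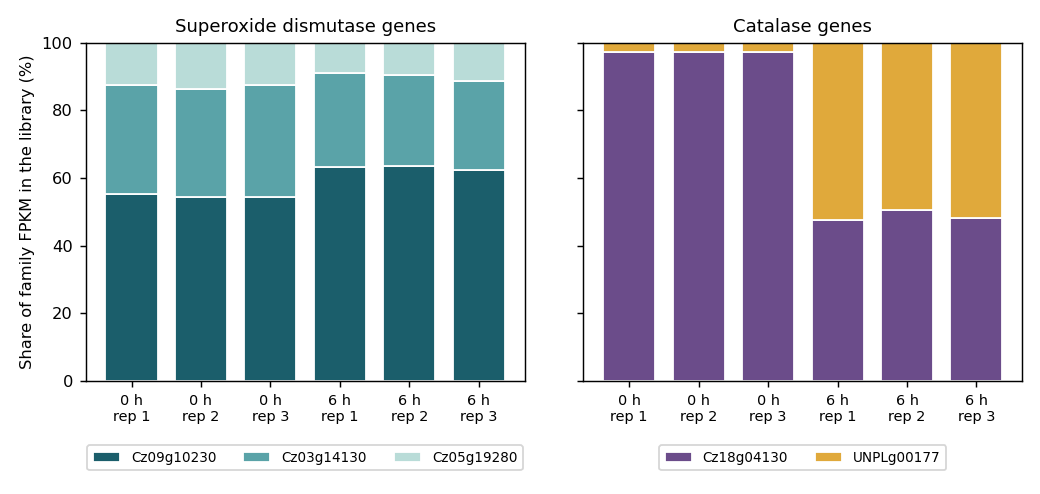
Share of each gene in the summed FPKM of its family (%), for each library at 0 h and 6 h, with the 3 SOD genes on the left and the 2 CAT genes on the right. UNPLg00177 took 2.74% of catalase FPKM at 0 h and 51.1% at 6 h on average, while the Fe-SOD gene Cz09g10230 went from 54.7% to 63.1% of SOD FPKM.

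The ratios between SOD genes restate these shares and are not a separate result. Cz09g10230 was at 1.71, 1.70 and 1.64 times the FPKM of Cz03g14130 at 0 h and at 2.29, 2.35 and 2.37 times at 6 h, with no overlap (exact permutation test, two-sided, p = 0.1). Against Cz05g19280, it was at 4.45, 4.01 and 4.35 times at 0 h and at 7.09, 6.59 and 5.55 times at 6 h, again with no overlap (exact permutation test, p = 0.1). Between the Fe/Mn-SOD genes, the FPKM of Cz03g14130 stood at 2.60, 2.36 and 2.65 times that of Cz05g19280 in the libraries at 0 h and at 3.09, 2.80 and 2.34 times in those at 6 h, and here the groups overlapped (exact permutation test, p = 0.5).

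The 3 SOD genes summed to 1590 ± 22.1 FPKM at 0 h and to 2198 ± 267 FPKM at 6 h (mean ± SD of 3 cultures), a ratio of 1.38. It was at 1569, 1588 and 1613 FPKM at 0 h and at 2410, 2285 and 1898 FPKM at 6 h, without overlap. With median-of-ratios scaling the difference was 0.77 on the log2 scale (exact permutation test, two-sided, p = 0.1). It was 0.46 without scaling, 0.33 with TPM scaling and 0.41 with upper-quartile scaling.

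The catalase genes summed to 532 ± 21.4 FPKM at 0 h and to 327 ± 29.3 FPKM at 6 h (mean ± SD of 3 cultures), a ratio of 0.614. The libraries at 0 h held 556, 520.2 and 518 FPKM and those at 6 h 318, 303 and 359 FPKM, so all libraries at 6 h were lower. The higher level of UNPLg00177 at 6 h thus covered part of the decrease of Cz18g04130 in the sum. With median-of-ratios scaling the difference was −0.40 on the log2 scale (exact permutation test, two-sided, p = 0.1). It was −0.71 without scaling, −0.84 with TPM scaling and −0.75 with upper-quartile scaling.

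Set against each other, SOD transcripts exceeded catalase transcripts 2.82-, 3.05- and 3.11-fold at 0 h and 7.59-, 7.55- and 5.28-fold at 6 h. The 6 h replicate 3 library, with the lowest SOD sum and the highest catalase sum at 6 h, gave the lowest ratio of its group, but still above all libraries at 0 h. The log2 ratio differed by 1.17 (exact permutation test, two-sided, p = 0.1). Together the 5 genes took up 0.224% ± 0.00589 of all FPKM in a library at 0 h and 0.242% ± 0.00293 at 6 h (SD, n = 3).

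The order of the genes within a library gives a view that no scaling factor can alter. Cz09g10230 ranked 105th, 107th and 127th by FPKM at 0 h and 114th, 95th and 89th at 6 h, and these ranges overlap. Cz03g14130 ranked between 228 and 233 at 0 h and between 272 and 283 at 6 h. Cz05g19280 ranked between 561 and 641 at 0 h and between 716 and 808 at 6 h.

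Thus both Fe/Mn-SOD genes stood lower in the order of transcripts at 6 h in every library, although their scaled FPKM were higher. Cz18g04130 went from ranks 221 to 244 at 0 h, next to Cz03g14130, to ranks 906 to 1224. UNPLg00177 went from ranks 10302 to 10726, below most genes listed, to ranks 833 to 1185. The libraries listed 14682 to 14697 genes at 0 h, against 14233 to 14433 at 6 h.

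**Figure D3:**
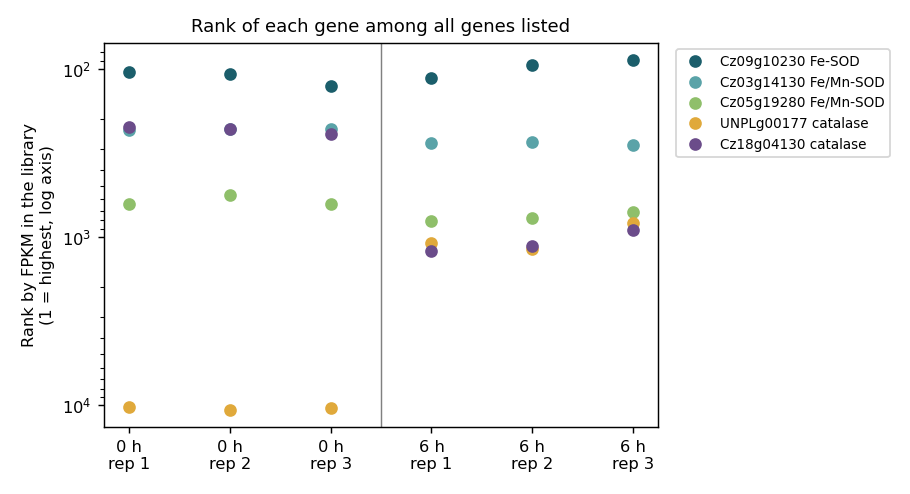
Rank of each SOD and CAT gene by FPKM among all genes listed in a library (log axis, rank 1 at the top), for the 3 libraries at 0 h and the 3 at 6 h. Cz18g04130 and Cz03g14130 start side by side near rank 230 at 0 h and separate, and the catalases meet between ranks 833 and 1224 at 6 h.

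The scaling between libraries moved the SOD values but did not change the catalase calls. The median log2 fold change of all genes tested was −0.04 with median-of-ratios scaling, −0.34 without scaling, −0.47 with TPM scaling and −0.39 with upper-quartile scaling. The higher genes made up 42.9% of all calls with the first of these and 30.1%, 25.5% and 28.4% with the others. UNPLg00177 was called higher under all 4 scalings (log2 fold change 3.38 to 3.81) and Cz18g04130 lower under all 4 (−1.83 to −1.39).

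For Cz09g10230 the log2 fold change was 0.67 without scaling, 0.53 with TPM scaling and 0.62 with upper-quartile scaling, with an adjusted p of at most 0.00831 by limma. For Cz03g14130 it was 0.19, 0.06 and 0.14 under the same settings, where the adjusted p by limma (0.273, 0.582 and 0.276) missed the threshold. Cz05g19280 was at 0.09, −0.05 and 0.04, so that its direction turned with TPM scaling (adjusted p = 0.708 by limma, range over all alternatives 1.52e-05 to 0.732). Each SOD gene lay above the median of all genes under all 4 scalings. Scaling moves each gene and the median nearly alike, so the 4 scalings are not separate evidence of this.

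**Figure D4:**
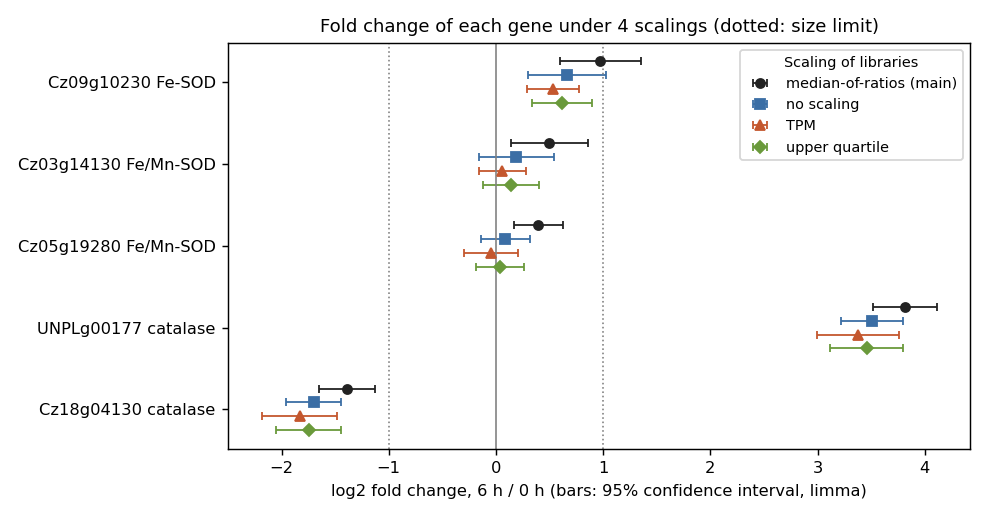
Log2 fold change (6 h over 0 h) of the 5 genes with its 95% confidence interval from limma, under median-of-ratios scaling (black), no scaling (blue), TPM (orange) and upper-quartile scaling (green), with the limits of −1 and 1 dotted. The catalases lie beyond the limits under each scaling, Cz09g10230 lies between 0.53 and 0.97, and the Fe/Mn-SOD genes lie near 0 except under median-of-ratios scaling, Cz05g19280 at −0.05 with TPM.

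Hydrogen peroxide is also removed by ascorbate and glutathione peroxidases, with glutathione reductase renewing glutathione. The study's tables hold 11 other scavenging genes, 10 of these kinds and Cz05g06020, annotated only as a peroxidase, of which 1 was called higher and 2 lower, beside 20.0% and 26.6% of all genes. Their median log2 fold change was −0.30, against −0.04 for all genes tested. Under each of the 3 other scalings 1 was called higher and 3 lower, and without 6 h replicate 1, 2 were called higher and 2 lower.

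The glutathione peroxidase gene Cz04g23200 rose from 98.05, 90.28 and 97.35 FPKM at 0 h to 466.19, 349.49 and 240.44 FPKM at 6 h (log2 fold change 2.14, SE 0.249, adjusted p = 0.000495 by limma). Its 3 libraries at 6 h were all above those at 0 h and spread widely, replicate 1 being the highest. Another glutathione peroxidase gene, Cz12g02050, fell from 10.62, 13.74 and 16.98 FPKM to 1.56, 0.56 and 0.92 FPKM (log2 fold change −3.42, SE 0.391, adjusted p = 0.000457 by limma). Glutathione peroxidases were thus called in both directions, as the catalases were.

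The ascorbate peroxidase gene Cz08g14160 fell from 124.01, 133.93 and 130.24 FPKM to 58.82, 49.12 and 45.56 FPKM (log2 fold change −1.04, SE 0.132, adjusted p = 0.000739 by limma). At 0 h and 6 h alike, each of these 3 peroxidase genes was below the Fe-SOD gene in FPKM in every library.

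Hydrogen peroxide is produced by oxidases as well, among them acyl-CoA oxidases, which open peroxisomal β-oxidation of fatty acids, and amine oxidases. Only these 2 classes were examined. Of 12 acyl-CoA and amine oxidase genes in the study's tables, 1 was called higher and 6 lower, beside 20.0% and 26.6% of all genes. Their median log2 fold change was −0.90, and under each of the 3 other scalings 1 was called higher and 7 lower. The acyl-CoA oxidases held 3 of the lower genes among 5, Cz08g04130 at −1.47, Cz16g14110 at −1.51 and Cz07g18040 at −1.66 on the log2 scale, and no higher gene was called among them. Cz07g30210, an acyl-CoA oxidase with a log2 fold change of 0.78, had an adjusted p of 0.0013 by limma and missed the size limit.

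Among the 7 amine oxidase genes, the copper amine oxidase gene Cz03g37180 rose from 2.96, 2.38 and 2.57 FPKM to 9.62, 15.43 and 25.36 FPKM (log2 fold change 2.82). The lower genes were Cz10g14120 at −1.04, Cz14g13140 at −2.11 and Cz11g06160 at −2.85 on the log2 scale. None of the 7 reached the level of either catalase at 6 h.

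Since catalase carries heme, 6 genes of heme synthesis and metabolism were examined too. By annotation they are a ferrochelatase, heme oxygenases and uroporphyrin III C-methyltransferases, so their values together do not measure heme supply. Of the 6 genes 1 was called higher and 0 lower, beside 20.0% and 26.6% of all genes. The 6 genes had a median log2 fold change of 0.72 and all lay above 0, as did 49.0% of all genes, with 0 lower at an unadjusted p under 0.05 by limma. Under each of the 3 other scalings 5 lay above 0, with medians of 0.28 to 0.41, and Cz05g21010 lay below; with TPM scaling 1 was lower at an unadjusted p under 0.05. The gene called was Cz14g07090, a uroporphyrin III C-methyltransferase, which leads into siroheme rather than heme. It rose from 12.65, 11.75 and 14.96 FPKM to 248.76, 223.67 and 174.62 FPKM (log2 fold change 4.33, SE 0.173, adjusted p = 1.18e-05 by limma).

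Ferrochelatase Cz16g21260, which inserts iron to complete heme, was at 83.35, 77.39 and 80.51 FPKM at 0 h and at 120.63, 109.45 and 98.94 FPKM at 6 h (log2 fold change 0.75, not called). The heme oxygenase entries UNPLg00465 and UNPLg00457 carry the same FPKM in all libraries and may not be separate measurements, so the 6 heme genes may hold 5 measurements. None of the 5 SOD and CAT genes shared its values with another gene.

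**Figure D5:**
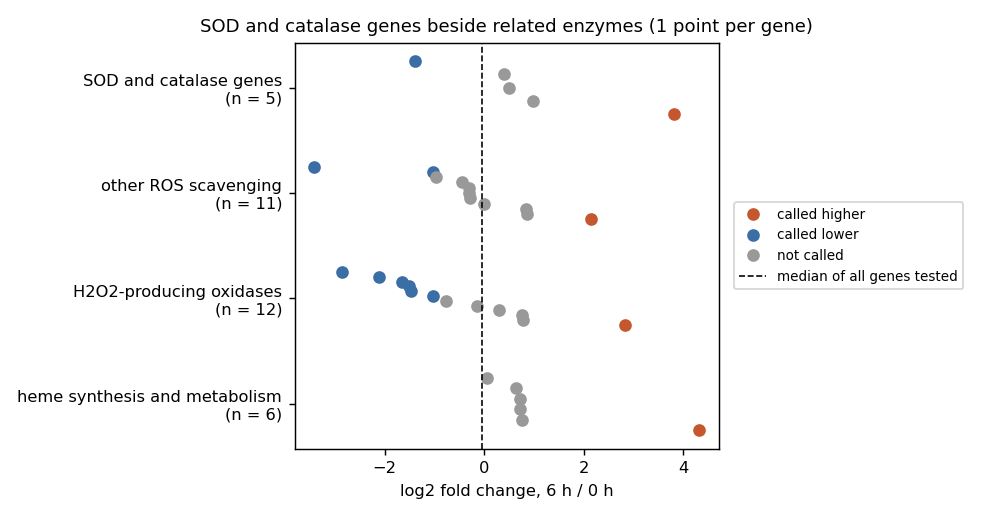
Log2 fold change (6 h over 0 h, median-of-ratios scaling) of the 5 SOD and CAT genes and of the genes of 3 related lists, 1 point per gene, coloured by call (orange higher, blue lower, grey not called). The dashed line is the median of all genes tested, −0.04. The 12 hydrogen peroxide producing oxidases, here acyl-CoA and amine oxidases only, have 6 lower genes. UNPLg00177 at 3.81 is exceeded among the genes shown by Cz14g07090 at 4.33 alone.

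The annotated genes most like each gene were sought over the 6 libraries, as the smallest root mean square difference of log2 values relative to each gene's mean at 0 h, among 1295 genes of the study's pathway tables. For UNPLg00177 they were UNPLg00180, a malate dehydrogenase (difference 0.149), and Cz02g17060, the beta subunit of the carboxyltransferase of acetyl-CoA carboxylase (0.151). Only 8 annotated genes lay within 0.2 of it. For Cz18g04130 they were Cz12g26260, a presenilin protease (0.060), and Cz13g02230, Rubisco activase (0.064), with 17 genes within 0.2.

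The SOD genes had many more neighbours, 114 for Cz09g10230, 106 for Cz03g14130 and 89 for Cz05g19280 within 0.2. Nearest to Cz09g10230 were Cz05g34270, the large subunit of acetolactate synthase (0.028), and Cz01g01210, a eukaryotic initiation factor (0.039). Nearest to Cz03g14130 were Cz05g34010, the alpha subunit of the signal recognition particle receptor (0.038), and Cz03g13020, a plastid-lipid-associated protein (0.050). Nearest to Cz05g19280 were the NF-YC entries Cz03g14060 and Cz09g22270 (0.047), which have identical FPKM in all libraries. With 2 times and 3 libraries at each, likeness in this measure mainly reflects a like fold change.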

How the data were processed

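Poly-A RNA was sequenced in 6 libraries, and the authors deposited FPKM with 2 decimals, without scaling between libraries. The study does not state whether the same cultures were sampled at both times. The study's methods name TopHat and Cufflinks, whereas the submitters' processing notes name HISAT, Bowtie2 and RSEM, so how fragments were divided among similar genes is not settled. The sources used here do not give the genome build or strandedness. Genes not listed in a library were set to 0 there. How many fragments lie behind a value is unknown, so no counting intervals were computed.

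Deposited FPKM were divided by median-of-ratios factors (1.11 to 1.13 at 0 h, 0.884 to 0.914 at 6 h) and log2-transformed after adding 0.1. The filter kept genes whose mean FPKM reached 1 at 0 h or 6 h, and these were tested by limma 3.58.1 under R 4.3.3 (eBayes with trend, two-sided), with Benjamini-Hochberg adjustment over all 13886 genes. Fold changes are on this log2(FPKM + 0.1) scale. Totals and ratios were compared by exact permutation tests. The procedure was tested on simulated data. The limma p-values rest on 3 cultures per time, with a spread pooled over both times and moderated by the trend over all genes. They do not reflect the larger spread at 6 h separately.

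The 5 genes and the related lists were chosen with earlier results of these data known, and the lists follow the study's tables, which were made with these samples in view. The genes named are the 5 genes, the list genes that were called, and the 2 annotated genes nearest to each. Cz07g30210, Cz16g21260, Cz05g21010, Cz05g06020 and the heme oxygenases were named after their values were seen. Alternatives were other scalings, pseudocounts, filters, a replicate block, library weights, no trend, no size limit, and leaving out each library. Protein, enzyme activity and qPCR measurements were not analysed here.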

Additional observations from a re-analysis of the deposited data

How the results depend on the processing

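Over 17 alternatives the calls of UNPLg00177 (log2 fold change 3.38 to 3.90, highest adjusted p 0.000931 by limma) and Cz18g04130 (−1.83 to −1.34, highest adjusted p 0.00308) held. Cz09g10230 kept its call in 14 and was called higher with library weights (1.03), with no limit on the fold change (0.97) and without 6 h replicate 3 (range leaving out 1 library 0.89 to 1.10). With no limit Cz03g14130 (0.50) and Cz05g19280 (0.39) were called as well, and Cz05g19280 reversed with TPM scaling (−0.046). Leaving out 1 library gave 0.40 to 0.63 for Cz03g14130, 0.37 to 0.44 for Cz05g19280, 2544 to 3242 genes called higher and 3288 to 4210 lower. The genes called higher numbered 1624 with TPM scaling, 1802 with upper-quartile scaling and 4665 with no limit, against 2772. The SOD total differed by 0.46 without scaling, 0.33 with TPM and 0.41 with upper-quartile scaling (leaving out 1 library 0.68 to 0.89). The catalase total differed by −0.71, −0.84 and −0.75 under these (leaving out 1 library −0.45 to −0.34). The catalase log2 ratio differed by 5.12 with a pseudocount of 1 (leaving out 1 library 5.18 to 5.27), and the SOD to catalase log2 ratio by 1.08 to 1.34 leaving out 1 library. Scaling shifts all genes together, and the cause of the other changes was not tested.

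Same-numbered libraries of the 2 times did not deviate together (r of −0.30, −0.11 and −0.49 across genes). Deviations from a mean of only 3 libraries are tied to one another, so these values cannot settle whether the numbers pair the samples. With the replicate block 2696 genes were called higher and 3521 lower, no call of the 5 genes changed, and the adjusted p of Cz09g10230 was 0.0182, of Cz03g14130 0.0814 and of Cz05g19280 0.0682 (limma). The precision of each value is limited by 3 cultures per time and by the unknown fragment counts.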
